A study of Rattus norvegicus with 24 samples.

Results

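Neurotrophic factors and their receptors were examined in the retina of diabetic and control rats. The 9 genes were chosen by name: Bdnf, Ntf3, Gdnf and Fgf2 encode secreted factors, and Ntrk2, Ntrk3, Ngfr, Gfra1 and Cntfr encode receptors. Of these, 6 genes had a probe whose transcript accession leads to the gene's current symbol, with 8 probes in all among 33849 rat probes. Ntf3, Ntrk2, Ntrk3, Ngfr and Gdnf had 1 probe each and Gfra1 had 3. Bdnf, Cntfr and Fgf2 were not reached through an accession and were not analysed here.

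Male Sprague Dawley rats received streptozotocin (STZ), a toxin of the insulin-producing beta cells, or the citrate vehicle alone, and retinas were collected 1 month (1M) or 3 months (3M) after the injection. Each of the 4 groups (1M Control, 1M STZ, 3M Control and 3M STZ) held 6 single-colour CodeLink whole genome arrays, each labelled as the retinal RNA of a separate rat. For 1M Control the study's animal data list fewer rats than there are arrays, which could not be resolved here. The diabetic rats received no insulin. The rats' age is not given in the sources used here, and each time point had its own controls.

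Neurotrophins are secreted proteins that keep neurons alive and shape their synapses. Brain-derived neurotrophic factor acts mainly on TrkB, the product of Ntrk2, and neurotrophin-3, the product of Ntf3, acts mainly on TrkC, the product of Ntrk3, while the p75 receptor encoded by Ngfr binds all neurotrophins. GDNF binds GFRα1, the product of Gfra1, which is anchored to the membrane and signals through the Ret kinase, whereas CNTF binds the receptor encoded by Cntfr. In the retina such factors are known for sustaining ganglion cells and photoreceptors, and Müller glia are both a source and a target of them.

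The upstream sequence of Gfra1 and of its ligand Gdnf is shown because this receptor and ligand were the only ligand and receptor with a probe that each had 1 entry among the RefSeq promoters used. Each window holds the 250 bases before the RefSeq start of the gene in the GRCr8 assembly, read 5′ to 3′ on the gene's strand. Capitals mark the GC box GGGCGG and the cAMP response element core TGACG, searched on both strands. No matches overlapped. The Gfra1 window is chr1:267555812-267556061 on the minus strand and the Gdnf window is chr2:58621077-58621326 on the plus strand.
Gfra1: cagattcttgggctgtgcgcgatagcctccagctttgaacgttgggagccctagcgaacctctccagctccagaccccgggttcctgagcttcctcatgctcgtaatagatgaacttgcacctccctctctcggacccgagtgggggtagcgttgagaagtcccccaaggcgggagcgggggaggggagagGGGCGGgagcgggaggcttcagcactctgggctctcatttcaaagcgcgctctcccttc
Gdnf: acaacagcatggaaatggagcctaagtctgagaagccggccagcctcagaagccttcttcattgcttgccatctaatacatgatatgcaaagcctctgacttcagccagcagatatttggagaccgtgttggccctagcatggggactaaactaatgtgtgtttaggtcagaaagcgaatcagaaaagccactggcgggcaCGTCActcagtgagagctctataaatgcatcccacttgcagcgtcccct
The Gfra1 window held 1 GC box and no TGACG, with 62% G and C bases. The Gdnf window held 1 TGACG, on the reverse strand, and no GC box, with 49.6% G and C bases. Over all 33469 RefSeq windows of 250 bases, 30.5% held a GC box and 18.2% held TGACG, so both features are common. These matches describe letters in the window and no binding was measured.

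Intensities are given as scaled intensity, the background-subtracted brightness of a spot divided by the median of the rat probes on its array, and differences are on the log2 scale. Levels of different probes cannot be set against each other. The arrays of the 2 time points differed in their whole profile. The 62 bacterial probes, which match no rat transcript, had an array median of 0.0589 to 0.137 at 1 month but 0.447 to 0.750 at 3 months. The array spread, which is the interquartile range of log2 intensity over rat probes, was 3.36 to 3.67 at 1 month. At 3 months it was 1.48 to 2.23 in controls and 2.07 to 2.70 in STZ rats (exact permutation test over arrays, two-sided, p = 0.00433). In the same exact permutation test the bacterial median was lower in 3M STZ than in 3M Control, with group medians of 0.557 and 0.683 (p = 0.0346). The arrays were also dimmer in 3M STZ, with a median unscaled intensity of 148 against 232 (exact permutation p = 0.0108). The array of 3M Control replicate 2 correlated least with the rest of its group (median r = 0.802). These differences move with treatment at 3 months, and their part in the results below was not tested beyond the alternative fits given beside them.

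The retinal label was borne out by rod markers: Sag (arrestin) and Rcvrn (recoverin) had group means from 5.34 to 7.38 on the log2 scale. In whole retina, fewer cells of a type and less RNA per cell cannot be told apart.

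A probe was tested when its median scaled intensity over the 24 arrays exceeded 0.554, which 22025 rat probes did. The call required a Benjamini-Hochberg adjusted p under 0.05 over these probes, by limma, and a change of at least 1.2-fold. The tested members were 6 probes of 4 genes (Ntrk2, Ntrk3, Ngfr and Gfra1). Ntf3 and Gdnf lay below the limit.

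At 1 month none of the 6 tested member probes was called (limma), and 1 of 6, the Gfra1 probe GE22011, had an unadjusted p under 0.05 both by limma and by the methods' test of the 2 groups. At 3 months 3 of 6 were called: Ntrk2 was lower, and Ntrk3 and 1 Gfra1 probe were higher in STZ retina. The background is wide at 3 months, since 54.1% of all tested probes were called (limma), 50.5% higher and 3.55% lower, against 0.00908% at 1 month. Thus 3 of 6 is close to the share of all probes, and the rises of Ntrk3 and Gfra1 lie in the common direction whereas the fall of Ntrk2 does not. The median 3M difference over all tested probes was 0.44, so the tested members are also set against it. The plots of levels by array and of differences at both time points show all 8 probes.

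**Figure D1:**
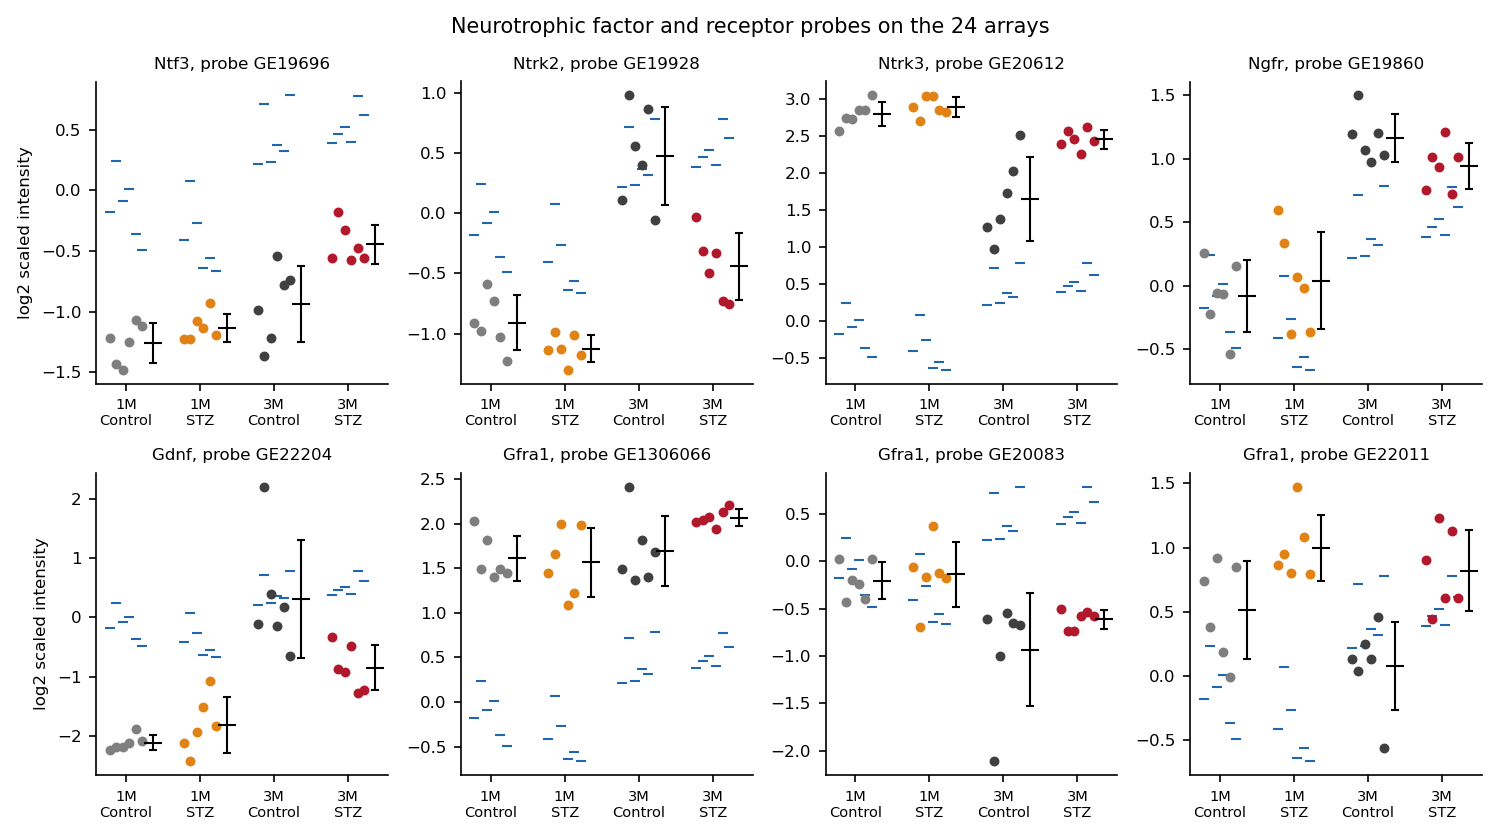
Log2 scaled intensity (vertical axis) of the 8 probes on the 24 arrays, by group. Each dot is 1 array, the black bar and whiskers are the mean and SD of 6 arrays, and blue dashes give the 95th percentile of the bacterial probes on each array. Ntrk2 is lower and Ntrk3 higher in 3M STZ than in 3M Control, and all 3M STZ dots of Ntrk2 lie below the dashes.

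Among the ligands, neurotrophin-3 was at background on every array. The Ntf3 probe (GE19696) had scaled intensities of 0.359 to 0.478 in 1M Control (median 0.426) and 0.427 to 0.524 in 1M STZ (median 0.446). At 3 months it was 0.389 to 0.688 in controls (median 0.545) and 0.672 to 0.884 in STZ rats (median 0.700). None of the 24 values exceeded the 95th percentile of the bacterial probes on its own array. All 6 values of 3M Control lay below even the bacterial median of their array, while all 6 of 3M STZ lay above it. Without the filter on dim probes, the 3M spot signal differed by 0.49 (SE 0.13, limma adjusted p = 0.00700). The median of all 33849 probes in that fit was 0.19. In the same fit 46.3% of probes were called, 32.1% higher and 14.2% lower. No transcript fold is given because both groups were at background.

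GDNF, a survival factor for neurons, was likewise not above background in 3 of the 4 groups. Its probe (GE22204) had scaled intensities of 0.211 to 0.270 in 1M Control (median 0.225) and 0.185 to 0.477 in 1M STZ (median 0.269). In 3M Control it ranged from 0.637 to 4.63 (median 1.03), and in 3M STZ from 0.412 to 0.799 (median 0.536). The groups overlapped at 3 months, with 4 of 6 STZ values below all controls. The highest value came from 3M Control replicate 2, and only 2 of 6 control arrays and no STZ array exceeded the bacterial 95th percentile.
The 3M spot signal differed by -1.16 (SE 0.32, limma without the filter, adjusted p = 0.00667), and by -0.78 without 3M Control replicate 2 (adjusted p = 0.0101). No fold is given, since the bound that background allows was below 1.

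TrkB mRNA, read by the Ntrk2 probe (GE19928), gave the lowest adjusted p among the members. In 1M Control its scaled intensity was 0.426 to 0.666 (median 0.519), and in 1M STZ 0.406 to 0.505 (median 0.456). In 3M Control it was 0.961 to 1.97 (median 1.40), and in 3M STZ 0.593 to 0.980 (median 0.752). At 3 months 5 of 6 STZ rats lay below every control. The exception was STZ replicate 1 at 0.980, just above 3M Control replicate 6 at 0.961, so the groups touched.
The mean log2 level was 0.48 ± 0.41 (SD, n = 6) in 3M Control and -0.44 ± 0.28 (SD, n = 6) in 3M STZ. The difference was -0.92 (SE 0.17, limma adjusted p = 0.000313), or -1.36 relative to the median of all tested probes. These are differences of spot signal, not of a measured amount of TrkB mRNA, for the reason given below.
At 1 month the difference was -0.21 (SE 0.17, limma adjusted p = 1.00). The interaction of the spot signal was -0.70 (SE 0.23, limma adjusted p = 0.0444), in a contrast in which 15.5% of tested probes were called and 0.731% in this direction. That call was lost on leaving out any of 16 of the 24 arrays, and since 3 of the 4 groups were not above background, it does not show that the effect on TrkB mRNA differed between the time points.

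The Ntrk2 signal was close to background throughout. On no array at 1 month and on none of 3M STZ did it exceed the bacterial 95th percentile, which it did on 4 of 6 arrays of 3M Control. It passed the filter on dim probes mainly through the 3M arrays, since all 12 of these but only 2 of 12 at 1 month were above the limit of 0.554. No fold is therefore given for TrkB, because its bound was below 1.
The bacterial probes moved the same way at 3 months, by -0.26 in log2 of their array median against -0.92 for Ntrk2. With that bacterial level as a covariate, the Ntrk2 difference was -0.95 (limma adjusted p = 0.000805). With quantile normalization it was -1.29 (limma adjusted p = 5.26e-05). After subtraction of the bacterial median it was -2.73 (limma adjusted p = 6.28e-05), so the size of the difference depends on how background is treated. With the array spread as a covariate it was -0.60 and not called (limma adjusted p = 0.543), a fit in which 0 of all tested probes passed and 1934 of 22025 had an unadjusted p under 0.05, Ntrk2 and Gfra1 GE22011 among the members. Leaving out any 1 array kept the call, with differences from -1.02 to -0.82.

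TrkC mRNA was above background on all 24 arrays. The Ntrk3 probe (GE20612) ran from 5.94 to 8.28 in 1M Control (median 6.95) and from 6.51 to 8.26 in 1M STZ (median 7.33). In 3M Control it ran from 1.95 to 5.72 (median 2.95), and in 3M STZ from 4.76 to 6.15 (median 5.44). At 1 month the STZ range lay within the control range. At 3 months 5 of the 6 controls lay below every STZ value, and 3M Control replicate 6, at 5.72, fell within the STZ range.
The mean log2 level was 1.65 ± 0.56 (SD, n = 6) in 3M Control and 2.45 ± 0.13 (SD, n = 6) in 3M STZ. The rise was 0.81 (SE 0.18, 1.75-fold, limma adjusted p = 0.00113), which is 0.36 above the median of all tested probes. Of these probes 88.1% had a lower difference.
At 1 month the difference was 0.09 (SE 0.18, limma adjusted p = 1.00). The interaction was 0.71 (SE 0.25) and was not called (limma adjusted p = 0.0518).
The call for Ntrk3 did not survive several ways of setting the arrays on a common scale. It was 0.34 (limma adjusted p = 0.0797) after quantile normalization and 0.60 (adjusted p = 0.110) after subtraction of the bacterial median. It was also 0.34 with the array spread as a covariate (adjusted p = 0.678). Leaving out any 1 array kept it, from 0.67 to 0.98.

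**Figure D2:**
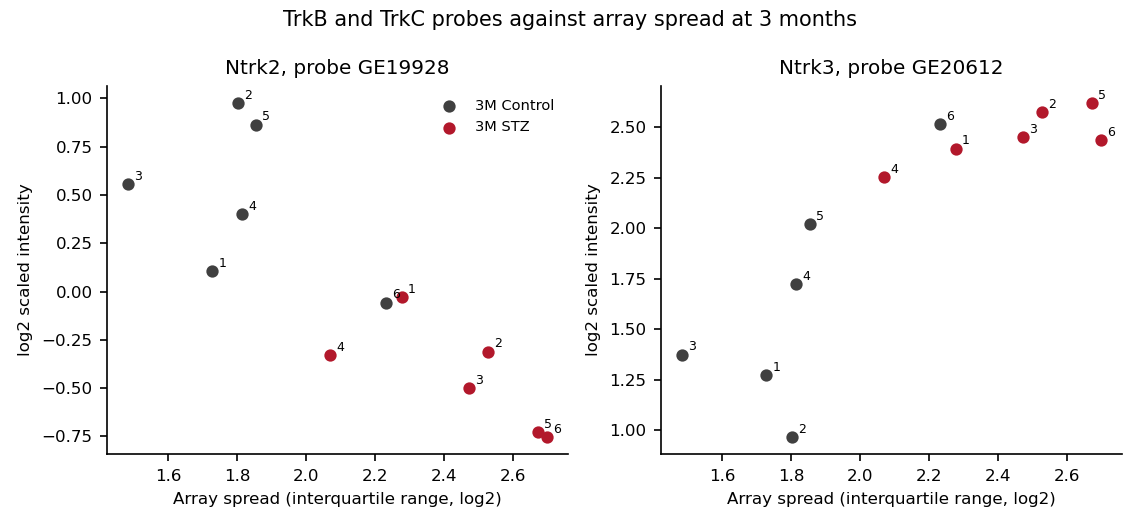
Log2 scaled intensity of the Ntrk2 and Ntrk3 probes (vertical axis) against the array spread (horizontal axis, interquartile range in log2 units) on the 12 arrays of 3 months, numbered by replicate. Ntrk2 is low and Ntrk3 high on the wide arrays, and 3M Control replicate 6, the control of widest spread at 2.23, lies with the STZ arrays in both panels.

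The plot of TrkB and TrkC against array spread shows that the array of 3M Control replicate 6 resembled the STZ arrays for both receptors. Without both 3M Control replicates 2 and 6, the Ntrk2 difference was -0.92 (limma adjusted p = 7.73e-05) and that of Ntrk3 0.86 (limma adjusted p = 4.24e-05).

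The p75 receptor (Ngfr, probe GE19860) was not called at either time point. Its scaled intensity was 0.687 to 1.19 in 1M Control (median 0.957) and 0.768 to 1.51 in 1M STZ (median 1.02). At 3 months it was 1.96 to 2.82 in controls (median 2.19) and 1.65 to 2.31 in STZ rats (median 1.96). The groups overlapped, with 3 of 6 STZ values below all controls. The difference was -0.22 (SE 0.16, limma adjusted p = 0.250), or -0.66 relative to the median of all probes, and 0.12 (SE 0.16) at 1 month. Quantile normalization gave a call, at -0.65 (limma adjusted p = 0.00759), in a fit in which 31.5% of all tested probes were called and 6.92% were called lower. So did subtraction of the bacterial median, at -0.62 (limma adjusted p = 0.0349), in a fit in which 25.8% were called and 4.19% were called lower.

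GFRα1 was read by 3 probes, which did not give 1 answer. The first (GE22011) ran from 0.993 to 1.89 in 1M Control (median 1.49) and from 1.73 to 2.78 in 1M STZ (median 1.88). It ran from 0.678 to 1.38 in 3M Control (median 1.10) and from 1.36 to 2.35 in 3M STZ (median 1.69). At 3 months 5 of 6 STZ values exceeded all controls, and 3M Control replicate 5, at 1.38, was just above the lowest STZ value.
The mean log2 level was 0.08 ± 0.34 (SD, n = 6) in 3M Control and 0.82 ± 0.32 (SD, n = 6) in 3M STZ. The rise was 0.74 (SE 0.19, limma adjusted p = 0.00282), or 0.30 relative to the median of all probes. In 3M Control 2 of 6 arrays, and in 3M STZ 4 of 6, exceeded the bacterial 95th percentile, so this probe was dim at 3 months and no fold is given.
This was also the member with the largest positive difference at 1 month, 0.48 (SE 0.19), which was above that of 99.3% of tested probes but was not called (limma adjusted p = 1.00). At 1 month 3 of 6 STZ values lay above all controls, and all 12 arrays exceeded the bacterial 95th percentile. The effects at the 2 time points differed by 0.26 (SE 0.26, limma interaction adjusted p = 0.441). The 3M call held after quantile normalization (0.69, adjusted p = 0.0132), but not with the array spread as a covariate (0.88, adjusted p = 0.481) nor after subtraction of the bacterial median (2.15, adjusted p = 0.0608).

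The second Gfra1 probe (GE1306066) was above the bacterial 95th percentile on all 24 arrays. It ran from 2.64 to 4.09 in 1M Control (median 2.81) and from 2.12 to 3.98 in 1M STZ (median 2.94). It ran from 2.58 to 5.32 in 3M Control (median 3.01) and from 3.85 to 4.62 in 3M STZ (median 4.16). The STZ values sat above 5 of the 6 controls and below 3M Control replicate 2. The difference was 0.37 (SE 0.18, limma adjusted p = 0.0748), close to the median of all probes. Quantile normalization turned its sign to -0.18 (limma adjusted p = 0.569). Without 3M Control replicate 2 it was 0.52 and called (limma adjusted p = 0.0128).
The third probe (GE20083) had 0.740 to 1.02 in 1M Control (median 0.856) and 0.620 to 1.30 in 1M STZ (median 0.904). It had 0.232 to 0.683 in 3M Control (median 0.631) and 0.600 to 0.705 in 3M STZ (median 0.671). At 3 months it was at background on all 12 arrays. Its difference was 0.32 (SE 0.20, limma adjusted p = 0.171), or -0.12 relative to the median of all probes. It fell to 0.09 without 3M Control replicate 2. In the main fit a rise of Gfra1 mRNA at 3 months thus rested on 1 of 3 probes. GE20083 was also called in 4 of the alternative settings other than the omission of single arrays. Its calls there are differences of spot signal, since it was at background.

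**Figure D3:**
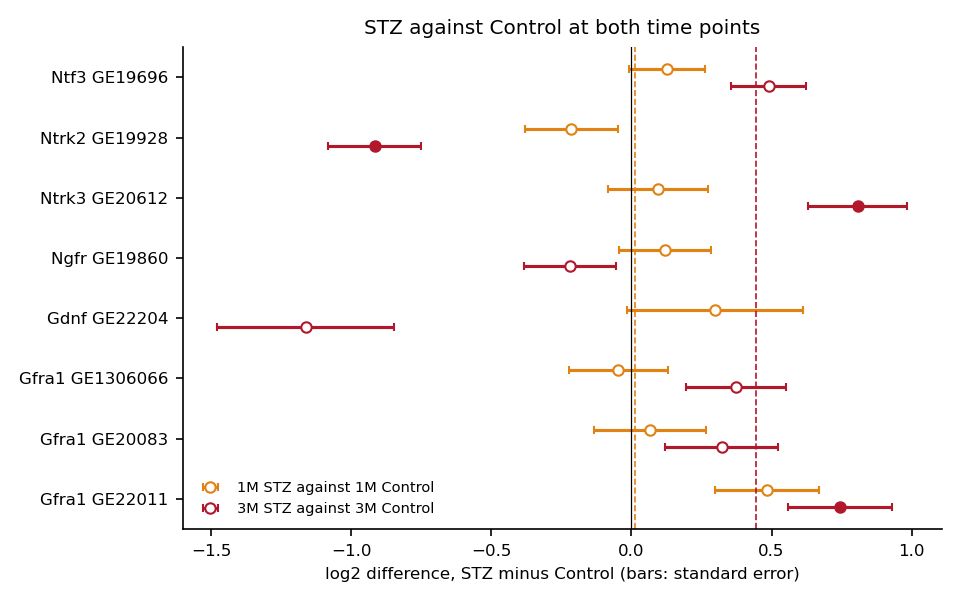
Log2 difference of STZ minus Control (horizontal axis) with its standard error for each probe (vertical axis), at 1 month (orange) and 3 months (red). Filled points passed the limma call among tested probes, and dashed lines are the medians over all tested probes, 0.01 at 1 month and 0.44 at 3 months. Only Ntrk2, Ntrk3 and Gfra1 probe GE22011 are filled, all at 3 months, and Ntrk2 lies farthest to the left of the red line among tested probes.

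The plot of 3-month differences under 6 settings sets these fits side by side. Ntrk2 kept its direction in each, and Ntrk3 and Gfra1 GE22011 did too, while GE1306066 turned under quantile normalization.

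**Figure D4:**
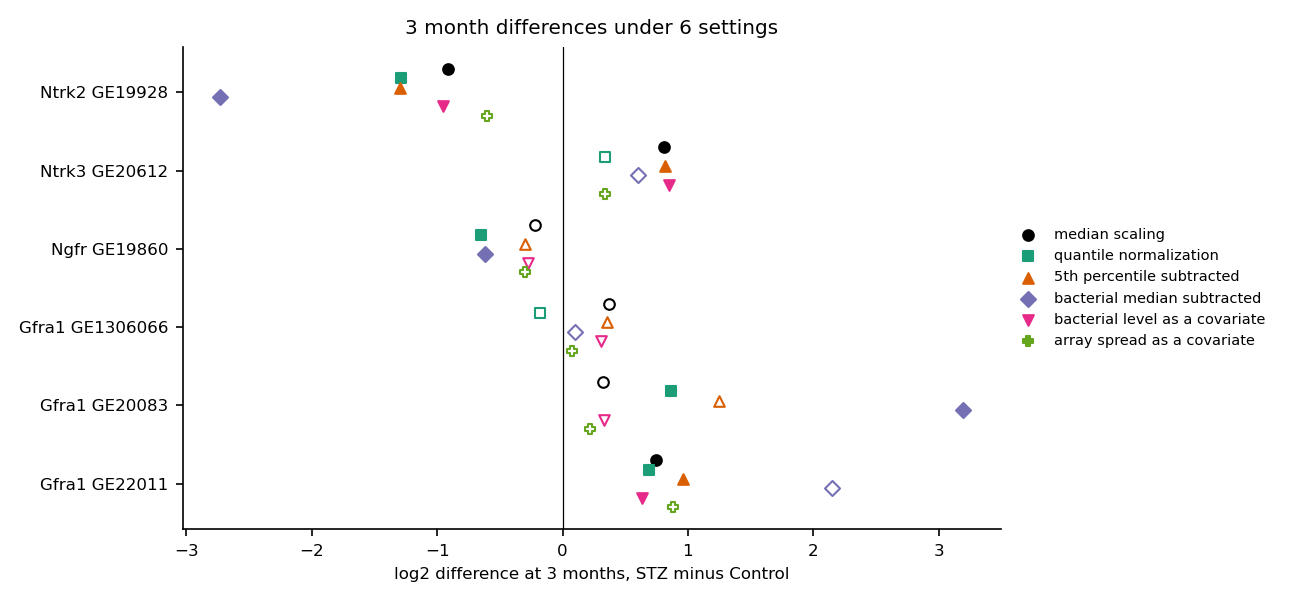
Log2 difference at 3 months, STZ minus Control (horizontal axis), of the 6 tested member probes (vertical axis) under 6 settings, given by symbol. Filled symbols passed the limma call. Ntrk2 is to the left of 0 under each of these, and no symbol is filled with the array spread as a covariate.

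The control groups of 1 and 3 months are given side by side, with no test, because age and batch cannot be told apart. Ntrk3 had a mean log2 level of 2.80 ± 0.16 (SD, n = 6) in 1M Control against 1.65 ± 0.56 in 3M Control. Ntrk2 went the other way, with -0.91 ± 0.23 against 0.48 ± 0.41, and so did Ngfr, with -0.08 ± 0.28 against 1.16 ± 0.19. The bacterial probes were likewise brighter at 3 months, with log2 array medians averaging -3.22 in 1M Control and -0.56 in 3M Control.

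Of the members' direct partners, Cntf, the ligand of the receptor encoded by Cntfr, was higher in STZ retina at 3 months. Its scaled intensity was 0.901 to 2.86 in 3M Control (median 1.68) and 2.25 to 5.11 in 3M STZ (median 2.79), with overlap. The rise was 0.90 (SE 0.22, limma adjusted p = 0.00272). It was -0.21 and not called at 1 month, and the interaction of 1.11 was called (limma adjusted p = 0.0296).
Ret, the kinase that signals for GFRα1, had 2 tested probes of opposite sign. One (GE1105553) rose by 0.54 (SE 0.16, limma adjusted p = 0.00762). Its call was lost after quantile normalization (0.36, adjusted p = 0.134) and after subtraction of the bacterial median (0.73, adjusted p = 0.121). The other (GE15732) had a difference of -0.49 (SE 0.32, adjusted p = 0.187). GE15732 exceeded the bacterial 95th percentile on 2 of 6 arrays of 3M Control and 0 of 6 of 3M STZ. Its value is thus a difference of spot signal, whereas GE1105553 exceeded that percentile on 5 and 6 arrays. Gfra2, the receptor of neurturin, rose by 0.50 on its tested probe (GE1277792, limma adjusted p = 0.0252), and this was 0.07 after quantile normalization and 0.32 without 3M Control replicate 2 (adjusted p = 0.0875). Its call was also lost without 3M Control replicate 3 or 3M STZ replicate 2 or 3. Its other probe (GE19941) lay below the filter. Nrtn, which encodes neurturin, was not called (0.37, adjusted p = 0.0608).
Ntf4, Lifr and Fgfr1 had probes below the filter on dim probes, and no fold is given for them. Sort1 and Il6st were not analysed here.

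The wider list of the trophic factor pathways held 89 other genes, of which 49 had a probe and 32 were tested, with 1 probe per gene. At 3 months 16 were called higher and 4 lower (limma). These counts include dim probes, since 5 of the 32 genes exceeded the bacterial 95th percentile on no array of 3 months, and 2 of those 5 were called higher. Over the 2811 tested genes with a symbol 56.0% were called higher and 3.45% lower. The median difference was 0.49 for the list and 0.50 for all these genes, so the list as a whole moved like the rest. At 1 month none was called (limma), with 1 of 32 at an unadjusted p under 0.05 by limma and 0 by the methods' test. After quantile normalization 6 of the 32 were called higher and 4 lower, against 767 and 173 of the 2811 genes.
The largest rises were in 2 immediate-early transcription factors, Nr4a1 (1.29, SE 0.36, limma adjusted p = 0.00567) and Egr1 (1.26, SE 0.43, adjusted p = 0.0167). Both rested in part on 3M STZ replicate 1, without which they were 0.79 (limma adjusted p = 0.00502) and 0.69 (adjusted p = 0.0342). Their calls were lost after quantile normalization (Nr4a1 0.77, limma adjusted p = 0.0659, and Egr1 0.58, adjusted p = 0.249) and after subtraction of the bacterial median (adjusted p = 0.0754 and 0.157). Src, a tyrosine kinase downstream of many receptors, rose by 1.26 (SE 0.18, limma adjusted p = 4.32e-05), with no overlap between the 3M groups. Non-overlap in either direction was seen for 10.2% of all tested probes and for 3 of the 32 genes of the list, the others being Pdgfa, which encodes a platelet-derived growth factor chain (0.98, limma adjusted p = 0.00116), and Map2k2, the kinase MEK2 (0.79, adjusted p = 0.00108). After quantile normalization Src kept its call (0.84, limma adjusted p = 0.000884), while Pdgfa (0.46, adjusted p = 0.0686) and Map2k2 (0.17, adjusted p = 0.305) lost theirs, and Map2k2 also lost it after subtraction of the bacterial median (0.43, adjusted p = 0.229). The fifth of the largest rises was that of Cntf.
The genes that fell included Pspn, which encodes the GDNF family ligand persephin (-0.96, SE 0.31, limma adjusted p = 0.0121), Rps6ka1, the kinase RSK1 (-0.76, SE 0.19, adjusted p = 0.00303), and Sh2b1, an adaptor of Trk receptors (-0.42, SE 0.18, adjusted p = 0.0469). Rps6ka1 was at background, above the bacterial 95th percentile on 1 of 12 arrays of 3 months, so its value is a difference of spot signal, which became -3.04 after subtraction of the bacterial median. Pspn was dim, above that percentile on 5 of 12 arrays of 3 months, so its value is also a difference of spot signal. It was -0.59 without 3M Control replicate 2 (limma adjusted p = 0.0357). The call for Sh2b1 was lost on leaving out any of 16 arrays, with -0.34 at the weakest, without 3M STZ replicate 3 (adjusted p = 0.121). Of the list's neurotrophin group, which also held a Trk adaptor and a Trk substrate, 3 genes were tested. Sh2b1 was among those lower, and Kidins220, a Trk substrate, was higher (0.67, limma adjusted p = 0.0103). The call for Kidins220 was lost after quantile normalization (0.15, adjusted p = 0.519) and after subtraction of the bacterial median (0.36, adjusted p = 0.374).

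**Figure D5:**
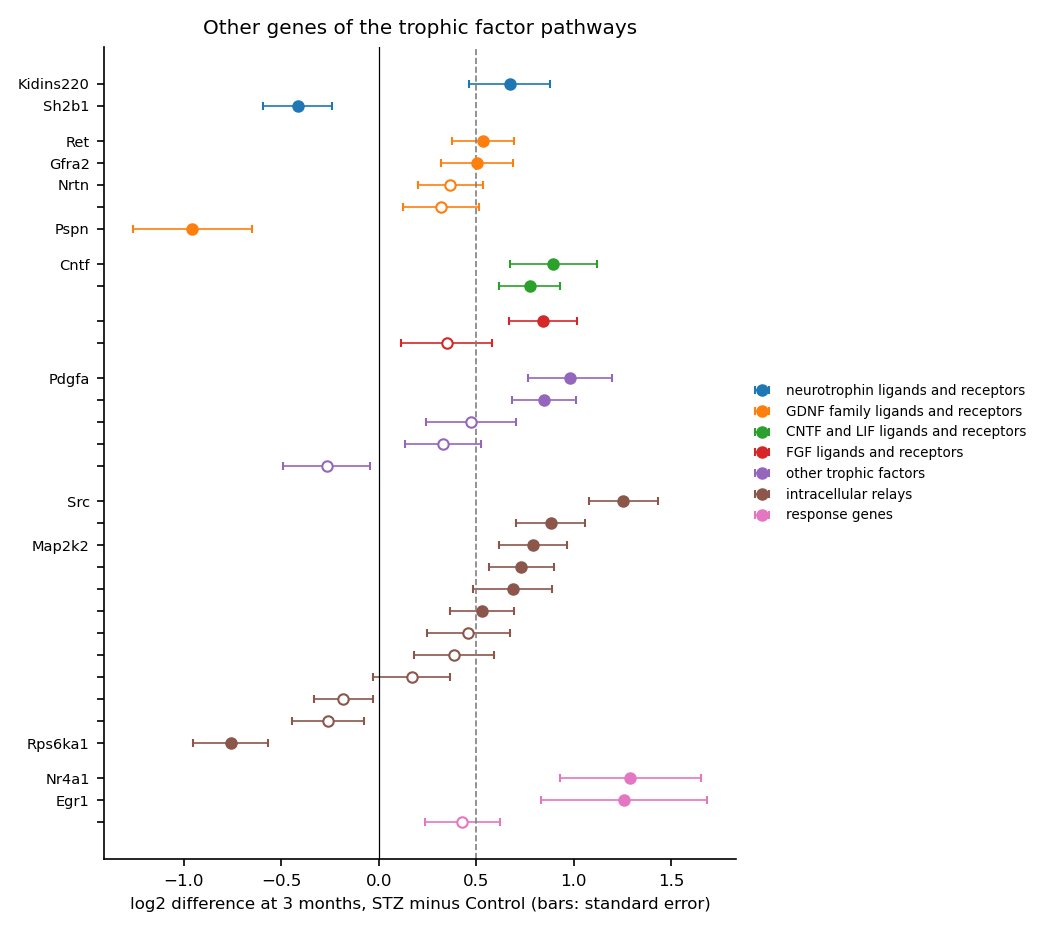
Log2 difference at 3 months, STZ minus Control, with its standard error (horizontal axis) for tested genes of the wider list (vertical axis), coloured by role, with the genes named in the text labelled. Filled points passed the limma call, and the dashed line is the median of all tested genes with a symbol, 0.50. Pspn, Rps6ka1 and Sh2b1 are the filled points to the left of 0.

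Among the 3 genes whose log2 level followed Ntrk2 most closely over the 24 arrays, after each time point's mean was subtracted, was Parp1 (Pearson r = 0.83). For Ntrk3 the 3 genes were Asic3, Arhgef1 and Hap1, each with r = 0.95. These are descriptions over arrays that share group, brightness and spread. The median r over 2810 genes was -0.57 with Ntrk2 and 0.64 with Ntrk3, so most genes ran against Ntrk2 and with Ntrk3.

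Markers of other cell types are read against the 56.0% of tested named genes that were called higher at 3 months. All 6 tested markers of reactive glia were higher in STZ retina (limma), with a median difference of 1.5002, and their summed scaled intensity was 16.9 to 41.1 in 3M Control and 67.2 to 367 in 3M STZ. All 6 were also called higher after quantile normalization, a fit in which 767 of the 2811 named genes were called higher. Of the ganglion cell markers 2 of 4 were higher (Nefm and Slc17a6) and none lower, with sums of 15.1 to 30.8 and 23.7 to 36.8. Of the Müller glia markers 1 of 3 was higher (Slc1a3), with sums of 35.8 to 102 and 77.9 to 114. Both shares are below that of all named genes, and after quantile normalization 0 markers of either list were called. Of 5 lens markers 4 were higher, with sums of 64.7 to 115 and 140 to 332, and 3 were called higher after quantile normalization. No tested marker on these lists was at 0 on an array of 3 months, and their part in the results for the members was not tested.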

How the data were processed

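The authors scanned single-colour CodeLink arrays and deposited, for each array, the background-subtracted intensity of every probe and a normalized value, which is that intensity scaled within the array; the series-level table held the same normalized values. Here the deposited intensity was divided by the median of the 33849 rat probes of the array, with a minimum of 0.01, and put on the log2 scale. The sources used here name no genome build. Probes were named through their transcript accession with RefSeq symbols of the GRCr8 assembly, which gave 4674 probes of 4012 genes a symbol. The 22025 rat probes with a median scaled intensity over the 35th percentile (0.554) were tested. All 24 arrays in 4 groups entered 1 model in limma 3.58.1 (R 4.3.3), and calls needed a Benjamini-Hochberg adjusted p under 0.05 and 1.2-fold. The fit was tested on simulated data. Arrays have no read depth, and their number (6 per group) limits the precision. Background was judged against the 95th percentile of 62 bacterial probes of each array.

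The members and gene lists were chosen with earlier results of these data known. Named genes were all members with each probe, their direct partners, the list genes called at 1 month, the 5 largest rises and up to 5 falls of the list at 3 months, and the 3 genes most like the 2 members of lowest adjusted p. Some genes that this rule selects are not reported here. Where a gene outside the members had several tested probes, the list used the brightest. Alternatives were other normalizations, background corrections, filters, minimum values, tests, covariates, weights and the omission of each array. Motif matches, figures and array-level exact permutation tests were made with Python 3.11.15, scipy 1.17.1 and matplotlib 3.10.9.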

Additional observations from a re-analysis of the deposited data

Results flagged for a closer look

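2 values of 3M Control replicate 2 lay far from the other 5 arrays of their group. The Gdnf probe (GE22204) had a log2 scaled intensity of 2.21 there, a scaled intensity of 4.63. The Gfra1 probe GE20083 had -2.11, a scaled intensity of 0.232. By the gap rule used, chance gives about 1 such value in 20 groups, and 2 were found in 32 groups of member values. The array was also the least like its group.

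The spot signal of Ntrk2 gave an interaction (3M difference minus 1M difference) of -0.70 on the log2 scale (limma interaction, adjusted p = 0.0444), a call that omission of single arrays often ended. As 3 of the 4 groups were not above background, it does not show that the effect on the transcript differed between the time points.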

How the results depend on the processing

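For the member probes at 3 months, 3 were called, and 3 to 4 on leaving out single arrays. With quantile normalization 4 were called and with the bacterial median subtracted 3, in both cases with Ngfr and without Ntrk3. Of 2 stricter filters, 1 was set at the bacterial probes and 1 required all 24 arrays above the limit. Under each of these 2 were called, and Ntrk2 was not tested. Without the filter on dim probes 5 were called, Ntf3 and Gdnf included, and with the array spread as a covariate 0. At 1 month 0 were called under every alternative run. The interaction had 1 call, Ntrk2, and 0 to 2 on leaving out single arrays: 0 for 16 arrays (1M Control 1, 2, 5 and 6, 1M STZ 1 to 6, 3M Control 2 and 3, and 3M STZ 2, 3, 5 and 6) and 2 for 3 arrays (3M Control 4 and 6, and 3M STZ 4). It had 0 calls with quantile normalization within each time point, with brightness, spread or the bacterial level as a covariate, and with the bacterial median subtracted before quantile normalization. It had 3 with array weights and 3 without 3M Control 2 and 6. Without the filter on dim probes it had 1, which was the spot signal of Gdnf (-1.46, limma interaction adjusted p = 0.0429) and not Ntrk2. It also had 1 under each of the 2 stricter filters, where Ntrk2 was not tested, so that call was of another probe. 

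For the wider list at 3 months (20 called, 18 to 23 on leaving out single arrays), the count was 10 with quantile normalization, 9 within each time point, 9 with the methods' test and 3 with its adjusted p, 12 with brightness and 0 with spread as a covariate, 11 with the bacterial median subtracted and 9 with quantile normalization after that. For all tested probes (11911 called, 8734 to 14055), the counts in the same order were 6948, 5536, 3722, 1921, 4058, 0, 5682 and 5557. The median 3M difference was 0.44, and 0.16 with quantile normalization, 0.19 without the filter, 0.40 with the bacterial median subtracted and 0.05 with spread as a covariate. Signs turned for Gfra1 GE1306066 at 3 months (-0.18 with quantile normalization, overall or within each time point, and -0.19 with the bacterial median subtracted before quantile normalization). At 1 month, where no probe was called, signs turned for the same probe with array weights (0.086) and on leaving out single arrays (-0.13 to 0.049), for GE20083 with brightness (-0.011) and on leaving out single arrays (-0.037 to 0.18), for Ntrk3 with brightness (-0.035) and for Ngfr with array weights (-0.0056). The causes were not tested.

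Replicate numbers do not pair the rats: correlations of same-numbered deviations ran from -0.24 to 0.25, and 3 of 12 pairs had their own number as best match. With the replicate number as a block, 3 member probes were called at 3 months and 2 in the interaction. Subtraction of the bacterial level, alone or with quantile normalization, the bacterial covariate and the omission of 3M Control 2 and 6 together were chosen after seeing the data. Slide or scan as a block was not run, because the files used name neither. Probes at or near the bacterial level (Ntf3, Gdnf, Ntrk2 and Gfra1 GE20083) limit what can be said of transcript amounts.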
